A study of Mus musculus with 41 samples.

Results

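Peaks at 10 genes of mouse imprinted domains were examined across CUT&Tag peak lists of 4 histone post-translational modifications (hPTMs), the lactylation mark H3K18la, the acetylation mark H3K27ac, and the methylation marks H3K4me3 and H3K27me3. The 10 genes were H19, Igf2, Meg3, Dlk1, Peg3, Mest, Snrpn, Kcnq1ot1, Grb10 and Plagl1, out of 53843 annotated genes on chromosomes 1 to 19 and X of mm10. They were chosen by name, and for each a promoter (2000 bp on either side of every annotated transcript start) and a gene window (the gene body with 10000 bp on either side) were searched for peaks. On chromosome 7 lie Peg3 chr7:6703892-6730431 (-), Snrpn chr7:59982495-60140219 (-), H19 chr7:142575529-142578143 (-), Igf2 chr7:142650766-142666816 (-) and Kcnq1ot1 chr7:143203458-143296549 (-), and on chromosome 12 Dlk1 chr12:109452823-109463336 (+) and Meg3 chr12:109541001-109571726 (+). The others are Mest chr6:30723547-30748465 (+), Plagl1 chr10:13060504-13131694 (+) and Grb10 chr11:11930508-12038683 (-) (GENCODE vM21, mm10).

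CUT&Tag directs a transposase to chromatin next to an antibody-bound histone mark, so that sequenced fragments pile up where the mark lies. The 41 samples form 24 groups, each a cell type and a mark, and each group has 1 peak list called on its pooled samples, 17 of them pooled from 2 samples and 7 made from 1. The cells were E14 embryonic stem cells grown in serum-lif (mESC-ser) or 2i-lif medium (mESC-2i), primary myoblasts (MB) and myotubes differentiated from them (MT), adult gastrocnemius muscle (GAS), white adipocytes (ADIPO), bone marrow-derived macrophages grown in DMEM with M-CSF (BMDM), and macrophages sorted from ischemic muscle after artery ligation (PIM). All samples were labelled as controls, the animal-derived samples were labelled C57BL/6, and all were processed in buffers with sodium butyrate, an inhibitor of deacetylases. Stem cells entered the assay as whole cells and the others as nuclei, and the adipocyte nuclei were captured on beads from mice whose adipocytes carry a nuclear tag driven by an adipocyte Cre. H3K18la was profiled in 8 cell types and H3K27me3 in 7 (not ADIPO). H3K27ac was profiled in 5 (mESC-ser, GAS, ADIPO, BMDM and PIM) and H3K4me3 in 4 (mESC-ser, mESC-2i, GAS and PIM). The 7 lists made from 1 sample were those of MB and BMDM and the H3K27ac lists of mESC-ser and PIM. Stem cell H3K4me3 and H3K27me3 lists without a medium in their name were taken as mESC-ser from the sample labels.

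Imprinted genes are expressed mainly from the chromosome of 1 parent, under the control of regions whose DNA methylation is set in the egg or sperm and kept through early development. The allele with an unmethylated control region or promoter usually carries active marks such as H3K4me3 and H3K27ac, whereas the silent allele may carry DNA methylation or, at some genes, H3K27me3, the mark deposited by Polycomb repressive complex 2. A promoter can therefore carry marks of both kinds on different chromosomes of the same cell. The lists do not separate the parental alleles, so marks on 1 allele, on both or in different cells cannot be told apart.

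Because samples were pooled before peak calling, no list has a replicate error, and each cell type gave a single value per mark. Peak numbers ranged from 13551 to 36823 for H3K18la, 12889 to 35290 for H3K27ac, 11008 to 28938 for H3K4me3 and 11769 to 36409 for H3K27me3, and the bases covered by H3K18la ranged from 22.6 Mb in BMDM to 137 Mb in MT. The read depth behind the lists was not analysed here, so a gene without a peak was below the calling threshold of that list, and peak strength is given only as a rank by total signal within its list. H3K18la promoter peaks were found at 5 of 5 stem cell markers in both mESC lists, 5 of 5 macrophage markers in BMDM and PIM, 5 of 5 adipocyte markers in ADIPO, and 5, 4 and 2 of 5 muscle markers in MT, GAS and MB. GAS also had H3K18la at 3 of 3 endothelial and 3 of 3 fibroblast markers, PIM at 3 of 5 adipocyte markers, MT at 3 of 5 macrophage markers, ADIPO at 2 of 3 fibroblast markers, and BMDM and PIM at 2 of 3 endothelial markers each. H3K27me3 was called at 3 of 5 muscle markers in GAS itself (Myod1, Ckm and Acta1), at 1 of 5 in MB and at 0 of 5 in MT.

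Sequence motifs of proteins known to act at imprinted control regions were searched near the genes, and a match is no evidence of binding. CTCF, the insulator protein, binds several sites upstream of H19 on the unmethylated maternal chromosome, and the motif CGNGGNGGC, part of its longer binding sequence, was searched on both strands in the 4000 bp upstream of each gene record. H19 had 3 matches, at 2168, 2623 and 3893 bp upstream of its annotated start, between genes in the annotation. The other 9 genes had none. Of all 53843 genes, 20.7% had at least 1 match and 1.54% had 3 or more. The matches are shown in capitals, from the minus strand, on which H19 is transcribed (GRCm38.p6).
H19 upstream chr7:142580301-142580330 (-): agacgatgccgCGTGGTGGCagtacaatac
H19 upstream chr7:142580756-142580785 (-): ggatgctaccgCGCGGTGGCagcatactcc
H19 upstream chr7:142582026-142582055 (-): gggagttgccgCGTGGTGGCagcaaaatcg

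ZFP57, a zinc finger protein that keeps DNA methylation at imprinted control regions, recognizes the hexamer TGCCGC when its CpG is methylated. Within 2000 bp on either side of the RefSeq gene starts, counted on both strands, the hexamer occurred 12 times at Mest, 10 times at Snrpn, 8 times at Peg3, 6 times at Plagl1, 5 times at Grb10 and 3 times at Kcnq1ot1, each at the start of the gene with the most. Igf2 had at most 2, and Dlk1 and Meg3 at most 1. Other starts of the same genes had fewer, such as 2 at another start of Mest and 0 at the other 3 starts of Snrpn. The shares that follow are over single starts. Of 32619 RefSeq starts, 46.9% had at least 1 hexamer, 0.0123% (4 starts, among them 2 of Mest) had 12 or more, 0.0337% had 10 or more, 0.123% had 8 or more, 0.696% had 6 or more, 1.61% had 5 or more and 8.83% had 3 or more. The 300 bases with the most hexamers (5 at Mest, 4 at Snrpn, 3 at Peg3 and 3 at Kcnq1ot1) are shown for the 3 genes with the most hexamers and for Kcnq1ot1, the gene with the most active-mark calls, each read on the strand of its gene with both orientations of the hexamer in capitals. The densest stretches of Plagl1 (4 hexamers) and Grb10 (3 and 4), which also lay under peaks, among them H3K27me3, are not printed. The Mest stretch lies 34 to 333 bp downstream of the RefSeq start mostly in exons. The Snrpn and Peg3 stretches lie in introns, and the Kcnq1ot1 stretch lies in its single exon within an intron of Kcnq1.
Mest chr6:30738084-30738383 (+): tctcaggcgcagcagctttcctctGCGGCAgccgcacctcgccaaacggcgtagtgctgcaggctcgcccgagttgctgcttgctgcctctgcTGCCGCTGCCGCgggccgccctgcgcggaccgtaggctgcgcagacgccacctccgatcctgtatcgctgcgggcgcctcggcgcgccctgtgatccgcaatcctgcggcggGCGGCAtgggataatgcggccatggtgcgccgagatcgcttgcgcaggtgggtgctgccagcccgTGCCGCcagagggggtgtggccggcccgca
Snrpn chr7:60004333-60004632 (-): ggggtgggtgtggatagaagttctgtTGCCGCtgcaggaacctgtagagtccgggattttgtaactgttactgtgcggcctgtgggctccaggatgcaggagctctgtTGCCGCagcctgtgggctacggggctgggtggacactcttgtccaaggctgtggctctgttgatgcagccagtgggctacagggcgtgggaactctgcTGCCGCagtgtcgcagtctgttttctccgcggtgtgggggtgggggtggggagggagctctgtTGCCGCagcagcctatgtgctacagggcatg
Peg3 chr7:6729440-6729739 (-): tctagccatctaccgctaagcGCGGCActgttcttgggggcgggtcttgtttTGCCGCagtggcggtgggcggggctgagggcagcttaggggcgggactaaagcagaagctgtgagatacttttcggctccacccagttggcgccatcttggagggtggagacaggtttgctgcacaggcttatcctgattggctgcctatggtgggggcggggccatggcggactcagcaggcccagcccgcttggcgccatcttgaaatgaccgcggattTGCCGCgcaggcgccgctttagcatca
Kcnq1ot1 chr7:143295558-143295857 (-): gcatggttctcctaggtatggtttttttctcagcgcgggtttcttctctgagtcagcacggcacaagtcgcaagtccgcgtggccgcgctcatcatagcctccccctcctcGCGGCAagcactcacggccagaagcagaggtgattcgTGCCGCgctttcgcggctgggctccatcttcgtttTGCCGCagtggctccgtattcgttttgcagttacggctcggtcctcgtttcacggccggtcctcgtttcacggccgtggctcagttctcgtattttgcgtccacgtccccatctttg

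RefSeq promoter windows (250 bases before and 50 after a start) are shown next for 3 genes with H3K27me3 at a promoter in every list of that mark. CpG dinucleotides, the sites of DNA methylation, are in capitals. The printed windows themselves overlapped H3K27me3 peaks in 6 lists at Dlk1, 4 at Igf2 and 4 at Grb10. Dlk1 had 9 CpGs, and the start of Igf2 with the most CpGs had 24 and that of Grb10 45. The other window of Grb10 had 9, and the other windows of Igf2 had 2, 14 and 7. The median of all windows was 7, and 1.93% of them had 45 or more. RefSeq windows matched 9 of the 10 genes.
Dlk1 chr12:109452573-109452872 (+): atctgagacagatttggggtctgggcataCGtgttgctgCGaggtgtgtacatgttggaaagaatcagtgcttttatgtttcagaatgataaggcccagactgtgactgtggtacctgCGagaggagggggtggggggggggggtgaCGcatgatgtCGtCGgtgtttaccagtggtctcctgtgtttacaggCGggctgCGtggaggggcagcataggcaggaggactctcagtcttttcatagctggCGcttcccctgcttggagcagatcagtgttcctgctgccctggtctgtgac
Igf2 chr7:142658755-142659054 (-): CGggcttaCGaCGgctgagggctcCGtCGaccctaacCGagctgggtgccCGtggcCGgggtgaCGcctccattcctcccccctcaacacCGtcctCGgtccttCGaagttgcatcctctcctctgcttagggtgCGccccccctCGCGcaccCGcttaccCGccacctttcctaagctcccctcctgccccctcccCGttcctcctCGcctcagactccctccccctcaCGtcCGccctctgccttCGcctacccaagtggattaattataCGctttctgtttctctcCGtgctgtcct
Grb10 chr11:12037371-12037670 (-): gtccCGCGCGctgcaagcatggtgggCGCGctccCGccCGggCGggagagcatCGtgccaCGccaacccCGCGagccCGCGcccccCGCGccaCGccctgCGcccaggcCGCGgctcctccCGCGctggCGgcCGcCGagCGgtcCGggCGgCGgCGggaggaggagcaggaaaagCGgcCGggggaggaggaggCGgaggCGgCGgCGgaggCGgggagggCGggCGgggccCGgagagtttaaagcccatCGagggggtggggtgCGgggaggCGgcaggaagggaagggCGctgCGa

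Over all lists, promoter peaks at the imprinted genes were found for every mark. H3K18la was called at 31 of 80 gene and cell type combinations, where 19.8% of all gene combinations were called. H3K27ac was called at 15 of 50 (24.4% of all genes), H3K4me3 at 30 of 40 (31.7%) and H3K27me3 at 35 of 70 (15%). The counts depended on list size. With the strongest 5000 peaks of each list the shares were 11.2% for H3K18la (5.59% over all genes), 10% for H3K27ac (9.07%), 22.5% for H3K4me3 (13.2%) and 37.1% for H3K27me3 (7.94%). With equal called bases per mark they were 7.5% (4.07%), 20% (14.7%), 57.5% (27.4%) and 38.6% (7.57%) in the same order. They also depended on the starts used, since the genes had 1 to 6 separate promoter windows. With the start of the gene record alone they were 22.5% for H3K18la (18.1% over all genes), 20% for H3K27ac (22.9%), 47.5% for H3K4me3 (30.4%) and 45.7% for H3K27me3 (14%). A CpG-rich promoter (at least 50% GC and a CpG ratio of at least 0.6 within 500 bp of a start) was present at 6 of the 10 genes, namely Igf2, Dlk1, Peg3, Mest, Grb10 and Plagl1. These 6 had H3K18la in 17 of 48 combinations (35.4%), where 43.9% were called over all genes with CpG-rich promoters. They had H3K27ac in 6 of 30 (20%, against 64.4% over such genes), H3K4me3 in 18 of 24 (75%, against 88.4%) and H3K27me3 in 30 of 42 (71.4%, against 23.1%). These shares describe 6 named genes, and no test was made of them.

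**Figure D1:**
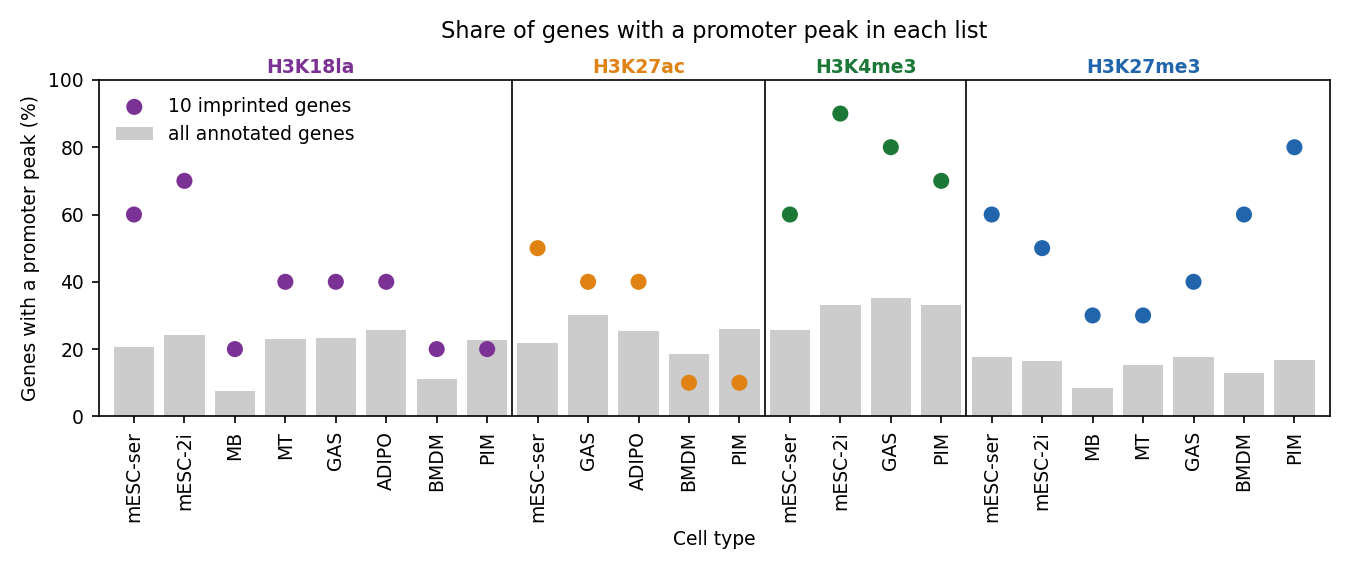
Percentage of genes with a promoter peak (y axis) in each of the 24 lists (x axis), with dots for the 10 imprinted genes and grey bars for all 53843 annotated genes. H3K18la dots are highest in mESC-2i (7 of 10 genes) and lowest in MB, BMDM and PIM (2 of 10), and the H3K27me3 dot is highest in PIM (8 of 10).

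The lists differed widely. H3K18la was called at 7 of the 10 promoters in mESC-2i, 6 in mESC-ser, 4 each in MT, GAS and ADIPO, and 2 each in MB, BMDM and PIM. H3K27me3 was called at 8 in PIM, 6 each in mESC-ser and BMDM, 5 in mESC-2i, 4 in GAS, and 3 each in MB and MT. List sizes differ, and 20.6% of all genes had H3K18la in mESC-ser, 24.3% in mESC-2i, 23% in MT, 23.3% in GAS, 25.7% in ADIPO, 22.8% in PIM, 11.1% in BMDM and 7.61% in MB. The 2 of 10 in PIM were thus close to the share of all genes, and the 2 of 10 in BMDM and MB were above it, as the plot of shares per list shows. For H3K27me3 the shares of all genes lay between 8.44% in MB and 17.7% in GAS, with 16.9% in PIM. Promoter peaks within the strongest 10% of a list made up 15 of the 35 H3K27me3 calls, where 29.4% of called combinations over all genes had such a peak. They made up 4 of 31 H3K18la calls (16.4% over all genes), 3 of 15 H3K27ac calls (18.1%) and 4 of 30 H3K4me3 calls (19.1%). The median width of the widest promoter peak was 11058 bp for H3K27me3 and 3421 bp for H3K18la. The median single peak of a whole list was between 2296 and 6036 bp for H3K27me3 and between 916 and 4595 bp for H3K18la. These measures are unlike, since the first takes the widest peak over up to 6 promoter windows of a gene. The widest promoter peak over all genes was not computed. Within the gene windows, peaks were called in 38 of 80 combinations for H3K18la (32.5% over all genes), 17 of 50 for H3K27ac (35.1%), 33 of 40 for H3K4me3 (42.3%) and 47 of 70 for H3K27me3 (25.4%). Gene windows of long genes hold more peaks, and these genes span from 2615 bp (H19) to 157725 bp (Snrpn).

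**Figure D2:**
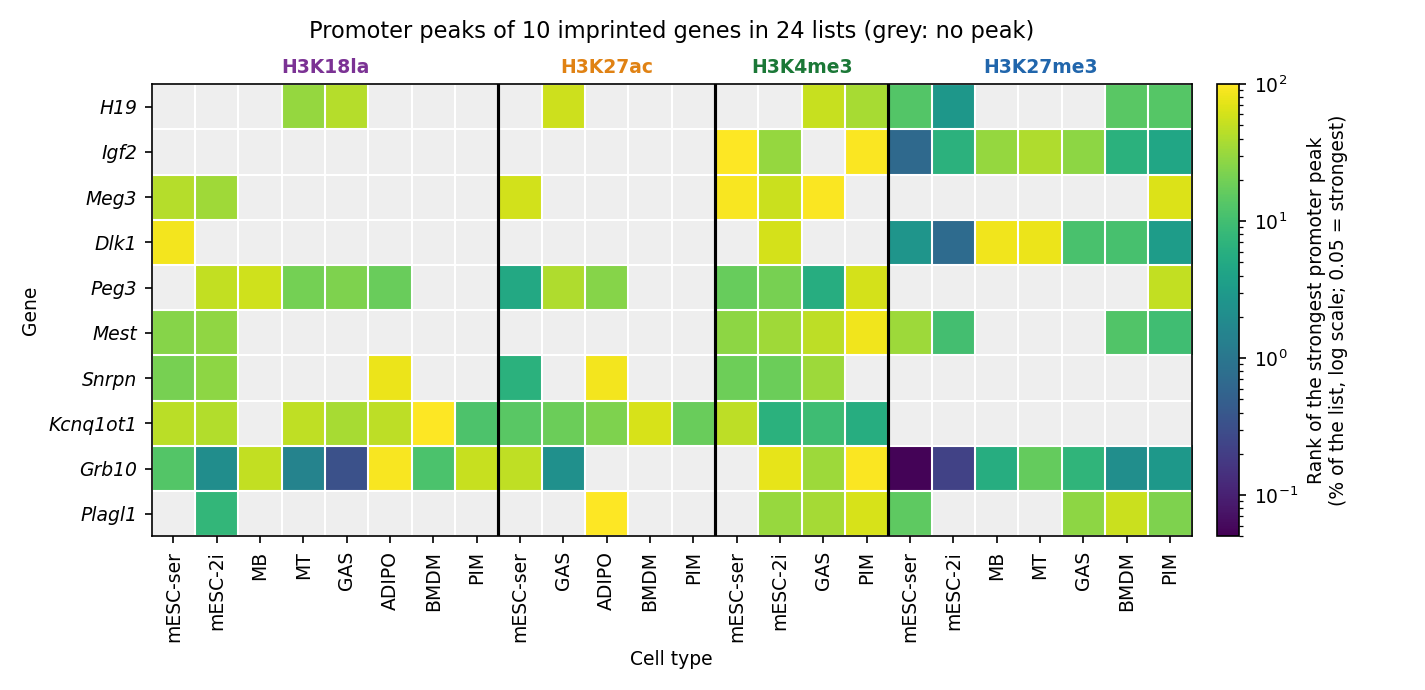
Promoter calls of the 10 genes (rows) in the 24 lists (columns), with colour giving the rank of the strongest promoter peak as a percentage of its list on a log scale and grey marking no peak. Igf2 and Dlk1 have H3K27me3 in all 7 lists and almost no H3K18la, Snrpn and Kcnq1ot1 have active marks and no H3K27me3, and Grb10 has both.

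Igf2 and Dlk1, growth regulators expressed from the paternal chromosome, had H3K27me3 at their promoters in all 7 cell types, as did Grb10, which was the case for 2.97% of all genes. Igf2 encodes a fetal growth factor that acts through the insulin-like growth factor receptors. H3K27me3 covered 98.9% of the Igf2 promoter bases in mESC-ser, 91.5% in BMDM, 85.7% in mESC-2i and 85.2% in PIM, followed by 38.9% in MT, 34.6% in MB and 23% in GAS. Stem cells and macrophages thus stood above the muscle cells. The share of all genes with such an order, here or at Dlk1 and Grb10 below, was not computed, and the MB and BMDM lists were each made from 1 sample. The widest Igf2 promoter peak was 23737 bp in mESC-ser, where it ranked 165 of 24450 peaks, and 2825 bp in GAS, at 27.6% of its list. H3K18la was called at none of the Igf2 promoters in 8 lists, and H3K27ac at none in 5. H3K27me3 in every cell type with H3K18la in none was the pattern of 1.56% of all genes, and Igf2 was the only 1 of the 10 with it.

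H3K4me3 marked Igf2 in 3 of 4 lists at different starts. In mESC-ser and mESC-2i the peaks (3817 and 5694 bp) lay at the downstream starts, including the window of 24 CpGs printed above, and in PIM a peak of 2791 bp lay at the most upstream start. The mESC-2i peak ranked at 30.2% of its list, the other two at 98.9% and 96.8%, close to the calling threshold. In GAS, Igf2 had no H3K4me3, but an H3K27ac peak of 7786 bp lay upstream of it, at -15886 to -8101 bp from its start, and reached into the record of Ins2, the gene for insulin 2. An H3K18la peak of 1777 bp lay past the 3′ end of Igf2 in the same muscle, at 69.9% of its list.

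Dlk1 encodes a Notch-like membrane protein of progenitor cells, which restrains adipocyte differentiation. H3K27me3 covered 100% of its promoter bases in mESC-2i, BMDM and PIM, 96.1% in mESC-ser, 61.1% in GAS, 46.7% in MT and 36.7% in MB. As at Igf2, the 3 muscle lists were lowest. The peak in mESC-2i spanned 39472 bp, more than the gene itself (10514 bp), and ranked 178 of 24618, and that in PIM spanned 28714 bp (3.37% of its list). In MB and MT the strongest promoter peaks ranked at 84.5% and 79.1%, and in GAS at 11.3%, close to the 10.9% of BMDM. Active marks were rare. One H3K18la peak in mESC-ser (2299 bp, 88.3% of its list) reached 6.81% of the promoter bases from upstream, H3K27ac was called in none of 5 lists, and H3K4me3 was called in mESC-2i only, with the stronger peak of 1983 bp spanning the start inside the H3K27me3 domain.

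Snrpn and Kcnq1ot1 showed the opposite pattern, with active marks and no H3K27me3 at the promoter in any of 7 lists. H3K27me3 in no cell type with H3K18la in at least 3 was the pattern of 16.5% of all genes, and these 2 were the only ones of the 10 with it. Snrpn encodes a core protein of small nuclear ribonucleoproteins. Its H3K18la peaks covered 30.9% of the promoter bases in mESC-ser, 30.9% in mESC-2i and 17.7% in ADIPO, and 0% in the 5 others. Both stem cell peaks and the mESC-ser H3K4me3 peak had the same ends, spanning 3020 bp over the hexamer stretch printed above. H3K27ac was called in mESC-ser (2522 bp, 6.41% of its list) and ADIPO (1319 bp, 87.5%), and H3K4me3 in GAS (32.5%) and both stem cell lists (18.9% in mESC-ser and 18.1% in mESC-2i), but not in PIM. All of these peaks lay at the downstream start, next to that of Snurf, 134548 bp or more downstream of the upstream start, the 5′ end of the gene record, which had no peak of any mark. In MB, MT, BMDM and PIM, no profiled mark was called at either start of Snrpn.

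Kcnq1ot1 is a long antisense RNA that is transcribed on the paternal chromosome from an intron of the potassium channel gene Kcnq1 and is needed to silence neighbouring genes. Active marks were called at its promoter more widely than at any of the other 9 genes. H3K18la covered 100% of its promoter bases in mESC-2i, 76.5% in mESC-ser, 69.1% in PIM, 63.3% in MT, 61.9% in GAS, 56.3% in ADIPO and 16.4% in BMDM. MB alone had no peak, and the BMDM peak was the narrowest (656 bp) and at 99% of its list. The H3K18la lists of MB and BMDM were each made from 1 sample and had the fewest genes called (7.61% and 11.1% of all genes). H3K27ac was called in 5 of 5 lists, covering from 33.2% in PIM to 100% in GAS. H3K4me3 was called in 4 of 4 and covered 64.5% to 71.2%, with ranks of 5.69% in PIM, 6.41% in mESC-2i, 9.42% in GAS and 46.8% in mESC-ser. The hexamer stretch printed above overlapped 6 of the 7 H3K18la peaks, the 5 H3K27ac peaks and the 4 H3K4me3 peaks.

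H3K27me3 around Kcnq1ot1 lay mostly beyond its 3′ end, within Kcnq1. Domains of 29481 bp in mESC-2i (1.83% of its list), 25379 bp in mESC-ser (1.48%) and 16464 bp in MT (15.7%) lay past the annotated end of the RNA, and shorter peaks lay there in MB (5159 bp) and GAS (2453 bp). The stem cell domains began 93600 and 96436 bp downstream of the start. Inside the annotated RNA, MT had a peak of 3907 bp (63.9% of its list) and mESC-ser a peak of 924 bp (99%). mESC-ser also had a peak of 4854 bp upstream, at -9782 to -4929 bp from the start, and BMDM and PIM had no H3K27me3 peak in the whole gene window.

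Peg3, Mest and Plagl1 are paternally expressed genes at which active marks and H3K27me3 were called in different cell types or, in some, together. Peg3 encodes a large zinc finger protein of the growth and stress response, and its start lies 147 bp from that of the divergent gene Usp29, so their promoter peaks are shared. H3K18la covered 37.9% of Peg3 promoter bases in mESC-2i, 29.9% in MT, 28.9% in MB, 28.2% in GAS and 24.2% in ADIPO, and 0% in mESC-ser, BMDM and PIM. The 4 cell types of mesenchymal origin (GAS, MB, MT and ADIPO) were thus all marked, and of the other 4 only mESC-2i. Their mean coverage of 27.8% against 9.48% gave p = 0.143 in an exact two-sided permutation test of 4 against 4 cell types (adjusted p = 1 over all genes, lowest p possible 0.0286). H3K27ac was called in mESC-ser (4.98% of its list), ADIPO (24.8%) and GAS (40.7%), so that mESC-ser had acetylation without lactylation, and H3K4me3 was called in all 4 lists, ranking at 5.67% in GAS and 60.4% in PIM.

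These Peg3 peaks lay mostly downstream of the start and over the printed intronic stretch, as in MT from -380 to 3212 bp from the start. PIM was the only list with H3K27me3 at Peg3 (4164 bp, 47% of promoter bases), where it overlapped the H3K4me3 peak. Past the 3′ end of Peg3, from 32429 bp downstream of the start, H3K18la peaks were called in MT and ADIPO, an H3K27ac peak in ADIPO, an H3K4me3 peak in GAS, and H3K27me3 peaks in both stem cell lists (3246 and 2019 bp).

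Mest encodes a membrane hydrolase family protein, and 3 promoter windows cover its 10 starts. H3K18la was limited to the stem cells, with 38% of promoter bases in mESC-ser and 33.9% in mESC-2i, and the stronger peaks (4636 and 6495 bp) lay over the start whose hexamers are printed above. H3K4me3 was called in the window of that start in 4 of 4 lists, ranking at 27.1% in mESC-ser, 34.3% in mESC-2i, 46.8% in GAS and 85.9% in PIM, where the peak ended before the start. H3K27ac was called in none of 5. H3K27me3 covered 82.9% of the bases in BMDM, 62.7% in PIM, 18.8% in mESC-ser and 17.1% in mESC-2i. In the stem cells it lay at the upstream starts only, while in BMDM and PIM peaks of 13358 and 11838 bp spanned the hexamer start as well. GAS had only H3K4me3. MB, MT and ADIPO had no peak at Mest of the marks profiled in them, among which H3K4me3 was not. The microRNA gene Mir335 lies within Mest, 17752 bp from its annotated start, at the downstream edge of the stem cell H3K18la peaks.

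Plagl1 encodes a zinc finger regulator of the cell cycle and of other imprinted genes. Its only H3K18la promoter call was in mESC-2i (60.5% of bases), where a 14226 bp domain at 7.71% of the list covered the most downstream starts and a peak of 2312 bp the first start. Elsewhere H3K18la lay inside or past the gene, as in MB and MT (peaks of 2179 and 2470 bp that overlap each other) and in ADIPO, where a 7312 bp peak past the 3′ end ranked at 8.68% and overlapped an H3K27ac peak of 4925 bp. H3K4me3 was called in mESC-2i (27.8% of bases), PIM (15.5%) and GAS (13%), in each of them at the middle start, whose RefSeq window holds 26 CpGs. H3K27ac was called there in ADIPO (1035 bp, 98.1% of its list). H3K27me3 was called in mESC-ser (38.6%), PIM (28.4%), BMDM (27%) and GAS (19.6%). It lay at the middle start in BMDM and PIM, at the first start in GAS, and at both in mESC-ser.

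H19, a maternally expressed noncoding RNA that hosts the microRNA gene Mir675, had H3K18la and H3K27me3 in different cell types. H3K27me3 covered 100% of its promoter bases in mESC-ser, BMDM and PIM and 98.1% in mESC-2i, and 0% in MB, MT and GAS. H3K18la covered 91.2% in MT and 57% in GAS, and 0% in the 6 others. No cell type had both marks at the promoter, and MB and ADIPO had neither among the marks profiled in them. The MT peak spanned 6308 bp (29.9% of its list) over the whole gene. In GAS, 3 separate promoter peaks were called, the strongest (1515 bp, 42.9%) over the start, and an H3K4me3 peak of 1093 bp lay over the start as well.

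The upstream region with the CTCF motif matches carried marks of its own. In GAS, an H3K18la peak of 1813 bp (99.4% of its list, just above the threshold) and an H3K4me3 peak of 1009 bp (53.1%) covered the 2 matches nearest to H19, and an H3K27ac peak of 3382 bp (55.4%) covered all 3. PIM had an H3K4me3 peak of 2540 bp (37.5%) over all 3 matches inside an H3K27me3 peak of 11492 bp (13.3%). BMDM had H3K27me3 over all 3 and no H3K18la or H3K27ac there, and H3K4me3 was not profiled in it. In mESC-ser the H3K27me3 peak ended between the middle and the farthest match, and in mESC-2i it ended at -1896 bp from the start of H19, before the nearest match. MT, whose H3K18la was the widest at H19, had no H3K18la or H3K27me3 peak over the matches, and the other marks were not profiled in it. The GAS list also had H3K18la at 3 of 3 endothelial and 3 of 3 fibroblast markers, though Pecam1 among them was called in every H3K18la list but that of ADIPO. The part of other cell types in these peaks was not tested.

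**Figure D3:**
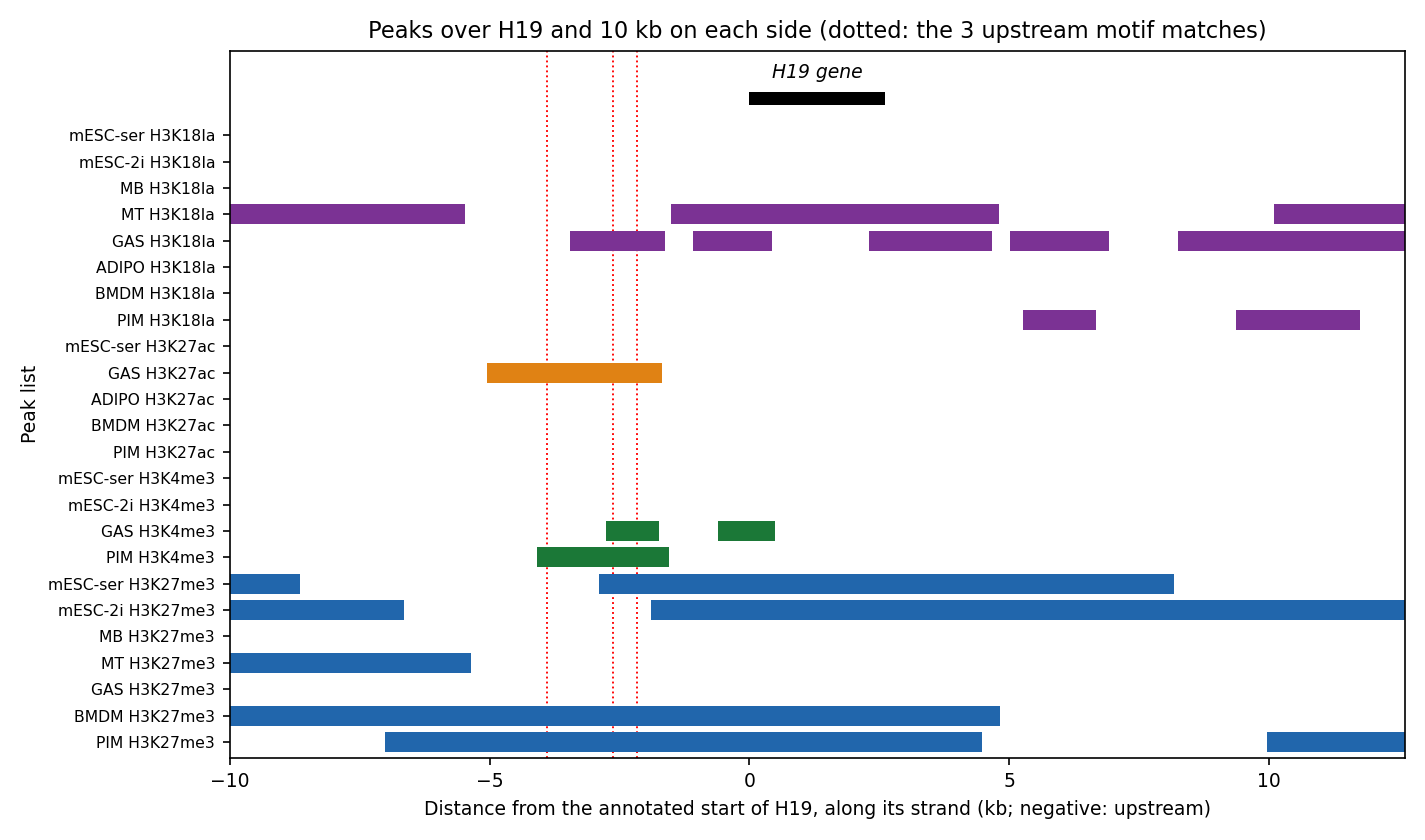
Peaks (bars, coloured by mark) in each of the 24 lists (y axis) by distance from the annotated H19 start in kb (x axis, negative upstream), with dotted lines at the 3 CTCF motif matches 2168 to 3893 bp upstream. H3K18la bars reach H19 in MT and GAS and lie only downstream in PIM, and H3K27me3 bars span H19 in the stem cell and macrophage lists. Only GAS and PIM have active-mark bars over the dotted lines, and H3K4me3 was not profiled in MB, MT, ADIPO or BMDM.

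Farther downstream of H19, the widest H3K18la domains of its window lay in the same 2 cell types. GAS had a domain of 24741 bp that ranked 179 of 36823 peaks (0.486%) and MT 1 of 18945 bp that ranked 539 of 33994 (1.59%). They began 8248 and 10101 bp downstream of the H19 start and overlapped Nctc1, a muscle-expressed noncoding gene, by 13442 and 9499 bp. PIM had smaller H3K18la peaks of 2397 and 1404 bp between H19 and Nctc1. In mESC-2i the H3K27me3 peak of H19 (25137 bp, 2.77% of its list) extended into this same stretch.

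Meg3, a maternally expressed long noncoding RNA 88178 bp downstream of the Dlk1 start, had H3K18la at its promoter in both stem cell lists and in no other. H3K18la covered 49.7% of promoter bases in mESC-2i and 29.1% in mESC-ser, and 0% in the 6 others. Stronger peaks lay upstream, where the control region between Dlk1 and Meg3 is found. In mESC-ser, H3K18la spanned 11328 bp (2.49% of its list), H3K4me3 8866 bp (rank 162 of 11008, 1.47%) and H3K27ac 2600 bp (28.2%) within -18024 to -6697 bp from the start. In mESC-2i the H3K18la peak there was 14752 bp (4.13%) and the H3K4me3 peak 7429 bp (rank 208 of 19383, 1.07%). These upstream H3K4me3 peaks were stronger than those at the Meg3 start, which ranked at 93.9% and 54.9%.

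PIM showed the same upstream place with a different set of marks, H3K18la of 2566 bp (43.1%), H3K4me3 of 2148 bp (76.8%) and an H3K27me3 peak of 11253 bp (20.5%) that contained both. PIM was also the only list with H3K27me3 at the Meg3 promoter (2969 bp, 24.2% of bases). In muscle cells H3K27me3 lay inside and past the gene, with 3 peaks of 5637 to 7692 bp in MT and 1 of 2999 bp in GAS. MB, ADIPO and BMDM had no peak of any profiled mark in the Meg3 window.

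Grb10, which encodes an adaptor that dampens insulin and growth factor receptor signalling, had the strongest H3K27me3 peak of the 10 genes. It had H3K18la in all 8 lists, which was the case for 1.5% of all genes, when its 6 promoter windows were counted together. The window of the annotated 5′ start had H3K18la in GAS only, and the window marked in the most lists had it in 6. Its annotated 5′ start lay in an H3K27me3 domain of 49626 bp in mESC-ser, rank 13 of 24450 peaks (0.0532%). The peak over this start was 44326 bp in mESC-2i (rank 56, 0.227%), 29141 bp in BMDM (2.15%) and 19309 bp in PIM (2.92%). In MT, GAS and MB it was 7301 bp (16.5%), 6641 bp (7.3%) and 6180 bp (5.76%), so that the muscle lists had the narrowest peaks. The CpG-dense window printed above was inside the domain in both stem cell lists, at the edge of a peak in MT and BMDM, and between peaks in MB, GAS and PIM. H3K18la was found at the far end of the gene, at the downstream starts. It spanned 16300 bp in GAS (rank 122 of 36823, 0.331%), 19212 bp in MT (1.49%) and 33817 bp in mESC-2i (2.05%). In mESC-ser the widest of 3 promoter peaks was 3815 bp, and in PIM, MB, BMDM and ADIPO the widest promoter peaks were 917 to 1998 bp.

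The marks were also compared on either side of the midpoint of the 108176 bp of Grb10. H3K27me3 covered more of the 5′ side than of the 3′ side in 7 of 7 lists, with medians of 27.6% and 5.06%, which 0.849% of all genes did. H3K18la covered more of the 3′ side in 8 of 8 lists, with medians of 20% and 0%, which 0.113% of all genes did. Grb10 and Gm26668 were the 2 genes of 53843 with both. This comparison was chosen after the peaks of Grb10 had been seen, and the counts describe these lists only. GAS also had 6 H3K18la peaks of 972 to 2761 bp in the first 43305 bp of the gene, 2 of them (1960 and 2695 bp) within 7559 bp of the start, where H3K4me3 and H3K27me3 were also called. H3K27ac overlapped the strongest H3K18la peaks of Grb10 in GAS (18465 bp, 2.26% of its list), mESC-ser (1789 bp, 48%) and ADIPO (6049 bp, 5.32%), in ADIPO outside the promoter windows. H3K4me3 peaks lay over the 5′ start in mESC-2i, GAS and PIM, sharing bases with H3K27me3.

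**Figure D4:**
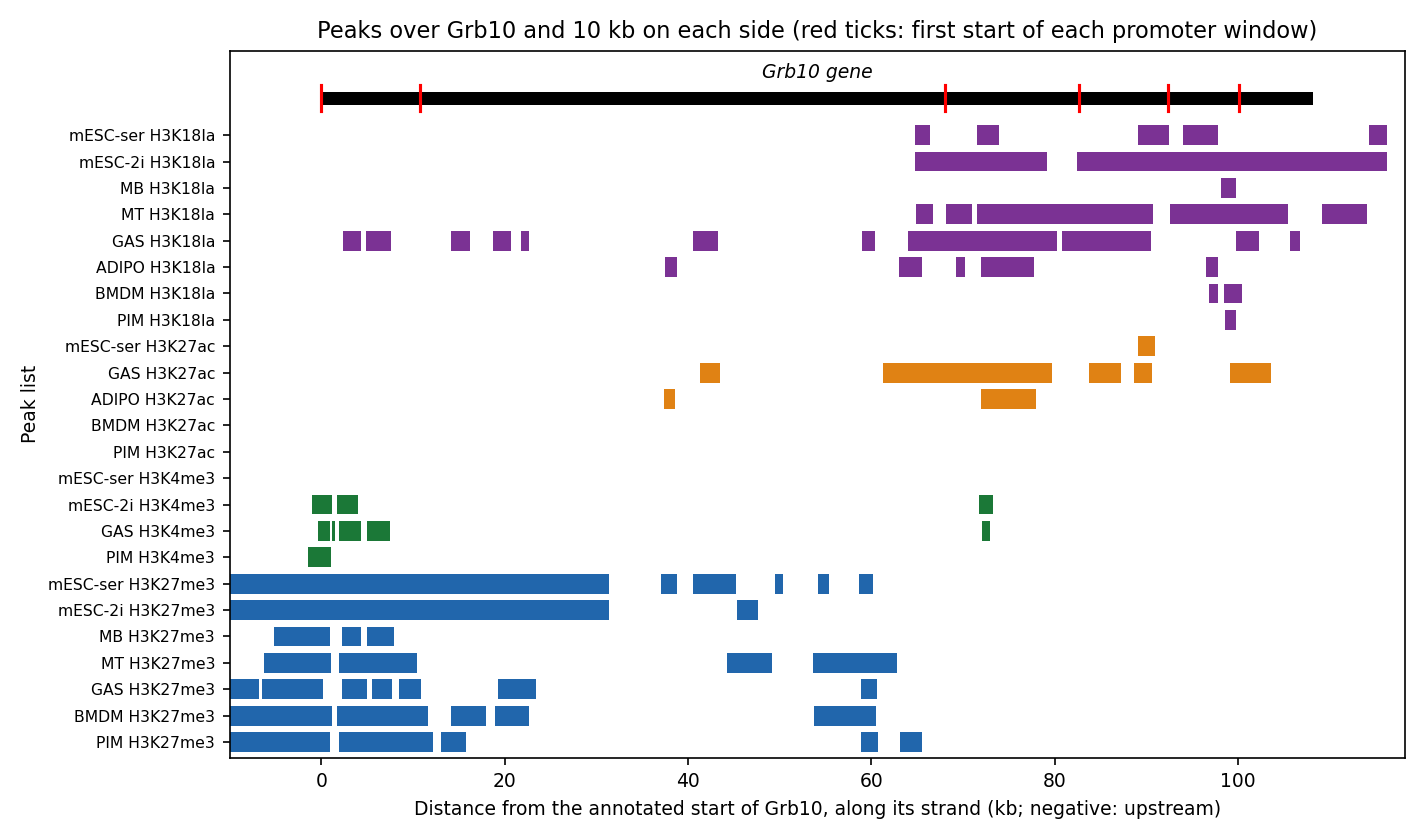
Peaks (bars, coloured by mark) in each of the 24 lists (y axis) by distance from the annotated Grb10 start in kb (x axis), over the gene of 108176 bp and 10000 bp on either side, with red ticks at the first start of each of the 6 promoter windows. H3K27me3 bars gather at the left, 5′ end in all 7 lists, and H3K18la bars at the right, 3′ end in all 8.

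Promoters with H3K27me3 and an active mark in the same cell type were found at 19 of 70 combinations, where 4.9% of all gene combinations had both. The count fell to 5 of 70 (7.14%, against 0.928% of all genes) with the strongest 5000 peaks of each list, to 10 (14.3%, against 1.97%) with equal called bases and to 8 (11.4%, against 3.99%) with the start of the gene record alone. In PIM they were 6 of the 10 genes (H19, Igf2, Peg3, Mest, Grb10 and Plagl1), where 8.43% of all genes had both. mESC-ser had 4 (Igf2, Dlk1, Mest and Grb10, 7.85% of all genes) and mESC-2i the same 4 (7.92%), GAS had 2 (Grb10 and Plagl1, 7.38%), and MB, MT and BMDM had Grb10 alone (0.202%, 1.63% and 0.895%). More marks were profiled in mESC-ser, GAS and PIM than in the others, with 3 active marks each. The peaks shared bases within the promoter in 14 of the 19 (3.98% of all combinations), while in 5 they lay at different places. These 5 were Grb10 in mESC-ser, MB, MT and BMDM and Plagl1 in GAS. The active mark was mostly H3K4me3, which was called with H3K27me3 in 14 of 40 combinations (7.21% over all genes) and shared bases with it in 12 (6.14%). H3K18la was called with it in 10 of 70 (2.22%) and shared bases in 3 (1.4%). H3K27ac was called with it in 2 of 40 (2.33%) and shared bases in 0 (1.33%).

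The promoter bases covered by H3K18la and H3K27me3 were then compared across the 7 cell types with both lists, with cell types as the unit and the same test run on all genes. Coverage by H3K27me3 was higher in 7 of 7 cell types at Dlk1 (mean 77.2% against 0.972%, H3K18la minus H3K27me3 -76.3 points, SD 27.5) and at Igf2 (65.4% against 0%, -65.4 points, SD 31.8). An exact permutation test over all sign flips, two-sided, gave p = 0.0156 for each, the lowest that 7 pairs allow. At Kcnq1ot1, H3K18la was higher in 6 of 7 and equal in 1, by 55.3 points (55.3% against 0%, SD 34.9), with p = 0.0312 in the same exact test. This difference depended on list size, and was 9.87 points (exact p = 1) with the strongest 5000 peaks of each list and 12.2 points (exact p = 0.5) with equal called bases. With 5000 peaks, Igf2 (-55.6 points) and Dlk1 (-63.6 points) had an exact p = 0.0625. After Benjamini-Hochberg adjustment of these exact permutation p-values over 53843 genes all 3 had adjusted p = 0.403, and 0 genes had one under 0.05. Unadjusted, 4284 genes had p under 0.05, and the design allows no p below 0.0156. Of all genes, 4.02% had an unadjusted p under 0.05 with H3K27me3 higher, as had 2 of these 10, and 3.93% had it with H3K18la higher, as had 1. The other 7 genes had exact permutation p-values between 0.25 and 0.625. At H19 the difference of -35.7 points had an SD of 83.9, with cell types at both extremes, and ranged from -56.9 points without MT to -25 points without mESC-ser, BMDM or PIM. At Grb10 it was -4.39 points (SD 23.9) over all of its promoter windows, but -80.9 points (exact p = 0.0156, adjusted p = 0.45) when the window of the gene record start alone was used. Over all of its windows it ranged from -9.17 points without MT to -0.0749 points without mESC-ser. The 7 cell types are not fully independent, since both stem cell types are the E14 line and MT were differentiated from MB.

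**Figure D5:**
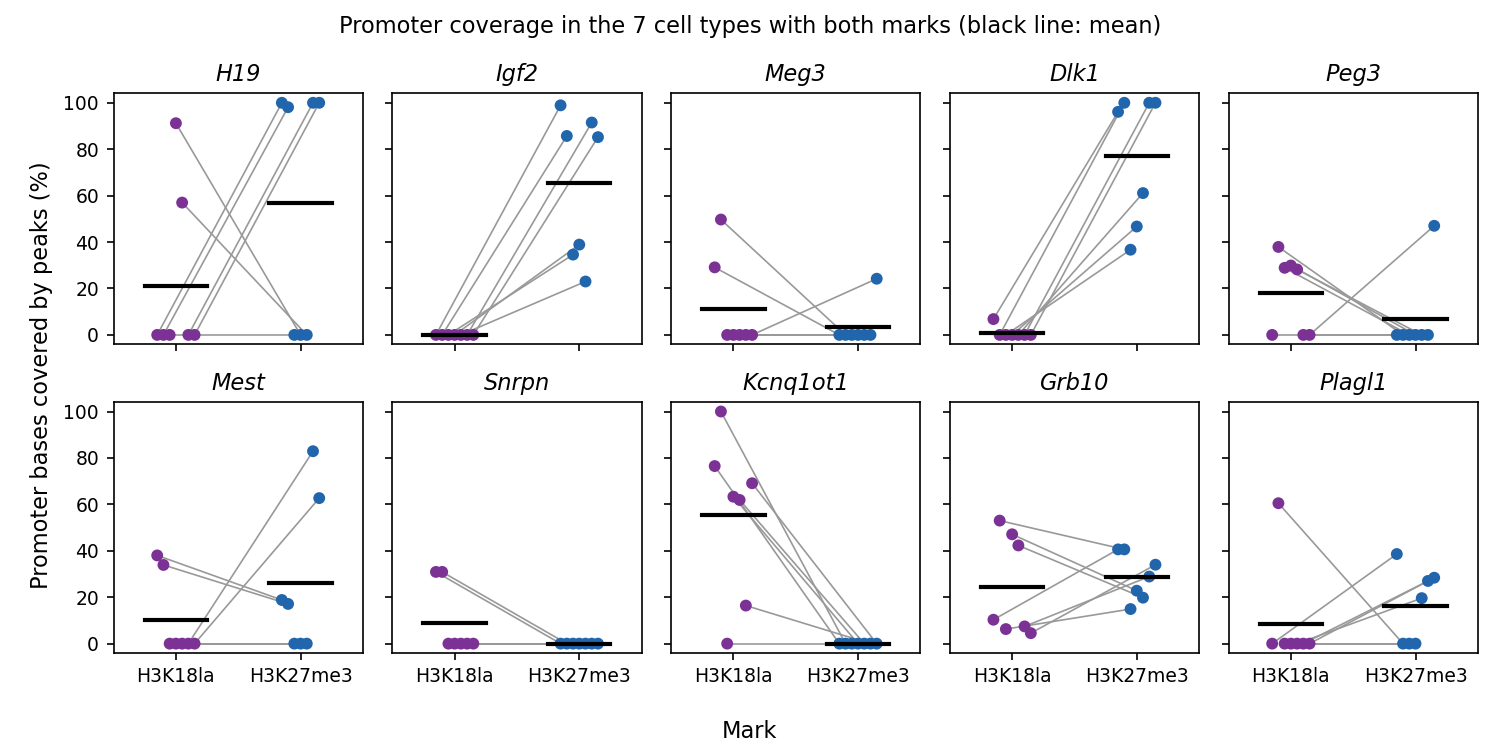
Percentage of promoter bases covered by H3K18la and by H3K27me3 peaks (y axis) at each of the 10 genes in the 7 cell types with both marks, with a line joining the values of 1 cell type and black bars at the means. All 7 lines rise at Igf2 and Dlk1, 6 of 7 fall at Kcnq1ot1, and lines cross at H19.

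H3K18la coverage was also compared between the 4 mesenchymal cell types (GAS, MB, MT and ADIPO) and the other 4. None of the 10 genes had an unadjusted p under 0.05 in the exact two-sided permutation test, and over all genes 356 had, with 0 after adjustment, where the design allows no p below 0.0286. H19 had the largest difference, with a mean of 37% against 0%, and an exact permutation p = 0.429, as 2 of the 4 mesenchymal cell types had no peak. Without MT this difference was 19 points. Meg3 (0% against 19.7%) and Mest (0% against 18%) had promoter H3K18la in the stem cells alone, with the same exact permutation p of 0.429. When 1 cell type was left out, the Meg3 difference of -19.7 points ranged from -26.3 to -9.69 points (without mESC-2i), and the Mest difference of -18 points from -24 to -11.3 points (without mESC-ser).

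A list of 55 other imprinted genes was examined in the same way. H3K18la was called at their promoters in 138 of 440 combinations (31.4%), H3K27ac in 88 of 275 (32%), H3K4me3 in 142 of 220 (64.5%) and H3K27me3 in 153 of 385 (39.7%), beside the 19.8%, 24.4%, 31.7% and 15% of all genes given above. Over all genes with CpG-rich promoters the shares were 43.9%, 64.4%, 88.4% and 23.1%, and the CpG content of the 55 was not taken into account. Of the 55, 3 had H3K18la in all 8 lists and 16 in none, where 50.8% of all genes had it in none. Those with H3K18la in the most lists were Blcap, Cd81 and Ddc (8 each) and Ampd3 and H13 (7 each), with Tssc4 also in 7. Among those with none were Ascl2, Calcr, Cdkn1c, Copg2 and Ins2. Ascl2 and Calcr were also among the 8 genes with H3K27me3 in all 7 lists, with Dio3, Gnas and Kcnq1. H3K27me3 was called in no list at 13 of the 55, such as Commd1, Copg2, Dcn, H13 and Inpp5f, where 63.5% of all genes had it in none. Around Kcnq1ot1, whose own promoter never had the mark, the listed genes were mixed (named here for their place). H3K27me3 was called at Ascl2 and Kcnq1 in 7 lists, Cdkn1c and Phlda2 in 6, Osbpl5 in 4, Tnfrsf23 in 2, Cd81 and Slc22a18 in 1 and Tssc4 in 0. Dio3, a thyroid hormone deiodinase gene, shares the domain of Dlk1 and Meg3.

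The 8 genes for factors that maintain imprints had H3K18la at their promoters in 28 of 64 combinations (43.8%), H3K27ac in 26 of 40 (65%), H3K4me3 in 29 of 32 (90.6%) and H3K27me3 in 6 of 56 (10.7%). Over all genes these shares were 19.8%, 24.4%, 31.7% and 15%, and over all genes with CpG-rich promoters 43.9%, 64.4%, 88.4% and 23.1%. The CpG content of the 8 genes was not taken into account. Dnmt1, the maintenance DNA methyltransferase, had H3K18la in 7 of 8 lists. Zfp57, whose hexamer is counted above, had H3K18la in 3 lists and H3K27me3 in 3, and Dppa3 had H3K18la in 5 and H3K27me3 in 2. Dnmt1, Trim28, Setdb1, Uhrf1 and Ctcf had H3K27me3 in none, and Zfp445 had H3K18la in none.

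For each of the 10 genes, the 2 genes with the most similar promoter coverage over the 24 lists were found among 27667 genes called in at least 3 lists, leaving out genes within 1000000 bp. The values share peak lists and their sizes, so the correlations (Pearson's r) are descriptions. Dlk1 was closest to Car15 (r = 0.994) and 1700041B01Rik (0.988), and Igf2 to 4930478K11Rik (0.973) and Wnt1 (0.962). H19 was closest to Gm49750 (0.981) and Heyl (0.967), Snrpn to Arhgef18 (0.982) and Hgh1 (0.961), and Kcnq1ot1 to Gm26397 (0.98) and Tomm20 (0.98), the gene of a mitochondrial import receptor. Meg3 was closest to Kcnip2 (0.966) and Gls2 (0.954), Mest to Slc26a10 (0.925) and Gjc1 (0.913), and Plagl1 to Tex15 (0.913) and Nefm (0.896). Peg3 (R74862, 0.824 and Laptm4b, 0.819) and Grb10 (Sorcs2, 0.828 and Hhipl1, 0.799) had the lowest values.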

How the data were processed

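CUT&Tag was carried out on the 41 samples described above, and the deposited files are 24 peak lists in mm10, each with the total and highest signal (coverage summed over a peak) that the authors obtained on pooled samples. Per the submitters' processing notes, the tools included Trim Galore 0.6.6, FastQC 0.11.0, Bowtie2 2.4.4, SAMtools 1.13, bedtools 2.30 and SEACR 1.3. Peaks of each list were ranked by total signal, which grows with width. Signal was not compared between lists, and the read depth was not analysed here.

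Genes and transcript starts were those of GENCODE vM21 on chromosomes 1 to 19 and X (53843 genes). A gene was called in a list when a peak covered at least 1 bp of its promoter windows (2000 bp on either side of each start), and coverage was the percentage of the bases of the merged windows under peaks. Differences in coverage were tested for every gene with exact two-sided permutation tests over cell types (128 sign flips of 7 pairs, or 70 assignments of 4 against 4), and p-values were adjusted over all genes by the Benjamini-Hochberg method. Samples were pooled before calling, so cell types and not replicates were the unit of the tests. They are not fully independent (both stem cell types are one line, and MT derive from MB), which limits the p-values. The scripts were tested on simulated data and run with Python 3.11.15, numpy 2.4.6, pandas 2.3.3 and matplotlib 3.10.9. Sequences were read from the GRCm38.p6 genome and RefSeq tables.

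All 10 genes were described in every list. Of the other imprinted genes, the 5 with the most lists called and up to 5 with none, in alphabetical order, were named for H3K18la and for H3K27me3, and the 2 most similar genes were named for each of the 10. The genes, lists and tests were chosen with earlier results of these data known. Alternatives changed the promoter width, the overlap, the number of peaks, the starts used and the cell types included. Removal of blacklisted regions was not run, as no blacklist was used here.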

Additional observations from a re-analysis of the deposited data

How the results depend on the processing

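The lists hold 1 value per cell type and mark, with no replicate error, and an absent peak is one below the threshold of its list. No paired analysis was possible because the samples that share replicate numbers were pooled into 1 list before peak calling, and the only pairs tested were the lists of 2 marks in the same cell type. Of the shares of members called, 50 values under the alternatives stayed within 1.5 times the reported value and 10 did not. With the strongest 5000 peaks of each list, the share of promoter combinations called fell from 38.8% to 11.2% for H3K18la, from 30% to 10% for H3K27ac and from 75% to 22.5% for H3K4me3, the share with H3K27me3 and an active mark from 27.1% to 7.14%, and the share of gene windows called over all marks from 56.2% to 27.1%. With lists reduced to equal called bases, H3K18la gave 7.5% and the share with both kinds of mark 14.3%. With the start of the gene record alone, H3K18la gave 22.5%, H3K4me3 47.5% and the share with both kinds 11.4%. H3K27me3 calls stayed between 37.1% and 50% under these settings. Leaving out 1 cell type at a time gave 34.3% to 41.4% for H3K18la, 25% to 35% for H3K27ac, 70% to 80% for H3K4me3, 45% to 53.3% for H3K27me3 and 21.7% to 30% for both kinds. The number of genes with an adjusted p under 0.05 was 0 throughout, which says nothing about stability, since 7 pairs allow no p below 0.0156 and 4 cell types against 4 none below 0.0286.

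Of the differences of single genes, 236 values kept their direction, 30 fell to 0, 7 turned and 14 belonged to a difference of 0 at Igf2. For H3K18la in mesenchymal against other cell types, Grb10 (5.86 points) became -0.594 with 5000 peaks, -3.61 with equal bases, -1.63 without MT and -0.0198 without GAS. Without the stem cells, which were processed as whole cells, Snrpn turned from -11 to 4.43 and Kcnq1ot1 from -20.1 to 2.64 in the same comparison, and Meg3 turned from 7.79 to -4.85 in that of H3K18la with H3K27me3. The cause was not tested. Over all cell types left out in turn, the Grb10 difference ranged from -1.63 to 17.3, the latter without mESC-2i. For H19 the mesenchymal difference of 37 points was 19 without MT. The requirement that H3K27me3 and the active mark share bases, chosen after seeing the data, gave 20% in place of 27.1%.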
